A study of Saccharomyces cerevisiae with 12 samples.

Results

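The genes described here are the long protein-coding genes of budding yeast, and the question is where along them peaks of the cohesin loader Scc2 were found with and without auxin. Nuclear coding genes with an annotated span of 3000 bp or more come from RefSeq's R64 gene table, where 527 of 6002 nuclear coding genes reach that length. Of these, 28 were left out because they lay within 20 kb of a chromosome end and another 65 because a tRNA gene or centromere lay within 1000 bp. The remaining 434 genes had a median span of 3692 bp (3003 to 14733 bp) and together made up 14.9% of the nuclear genome. A total of 227 were on the Watson strand and 207 on the Crick strand, as read from the systematic names.

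Scc2 and its partner Scc4 form the complex that loads the cohesin ring onto chromosomes. Cohesin holds sister chromatids together and forms chromatin loops, and in budding yeast it is known to be moved along active genes towards their ends after loading. Med14 is the scaffold subunit of Mediator, the coactivator that connects transcription factors to RNA polymerase II at promoters. A coding gene is read by RNA polymerase II from its start to its end, so a peak can be placed on a scale of relative position from 0 at the start to 1 at the end of the annotated span, introns included.

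All cultures were W303 cells of mating type MATa and carried the same alleles. The plant F-box protein OsTIR1 was expressed from the ADH1 promoter at ura3-1, MED14 carried the AID* degron with a 6FLAG tag, and SCC2 carried a 13MYC tag. Per the labels, 3 samples had 1 mM auxin added while held in alpha-factor and went on into nocodazole with auxin. The other 3 samples had no auxin treatment. Auxin apart, the labels give both groups the same steps: an additional 1.5 h in alpha-factor, 2 h in nocodazole and 30 min in formaldehyde. The labels do not say whether the replicates were separate cultures, so the p-values measure the spread between these samples, which may be technical. No culture without the degron was included in this comparison, so auxin itself and loss of Med14 cannot be told apart. Scc2 was immunoprecipitated through its Myc tag, and each of the 6 immunoprecipitates has a deposited list of narrow peaks on sacCer3. Total chromatin samples make up the rest of the 12 samples and were not used here. No read depth is given with the lists, and a gene without a summit is one where no peak was called.

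The lists held 2115, 2111 and 1502 peaks without auxin and 964, 1324 and 1569 with auxin. The third list without auxin was shorter than the other two of its group. For each peak the summit, the base of highest signal given by the authors' peak caller, was placed in a gene when it lay inside the span.

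Fewer long genes held an Scc2 summit in cultures with auxin. Without auxin, 98, 107 and 61 of the 434 genes held at least 1 summit, and with auxin 35, 44 and 45 did. The groups did not overlap. As a share of the long genes this was 20.4 ± 5.62% in the lists without auxin and 9.52 ± 1.27% in those with it (mean ± SD of 3 lists; exact two-sided permutation p = 0.1, the smallest that 3 lists against 3 can give). This difference depended on the length of the lists: with the 964 most significant peaks taken from every list, 31 genes held a summit in each list without auxin and 35, 29 and 20 in those with auxin, and the groups overlapped. No summit was found in any list in 300 of the 434 genes.

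The stretch of each gene that lay under peaks was smaller too, and here the groups stayed apart with lists of equal length. Peaks covered 7.36%, 8.11% and 5.17% of the span, as a mean over all long genes, in the lists without auxin. With auxin the values were 1.75%, 2.08% and 2.32% (p = 0.1 by the exact permutation test). With 964 peaks in every list the coverage was 3.87%, 3.72% and 3.80% without and 1.75%, 1.36% and 1.13% with auxin. Peaks covered 50% or more of 25, 29 and 18 genes without auxin, and of 3, 2 and 3 genes with auxin. Genes that held any summit held 2.04 ± 0.118 of them in cultures without auxin and 1.70 ± 0.0952 in those with it (mean ± SD of 3 lists; p = 0.1 by the exact permutation test). Long genes took up a smaller part of the lists with auxin as well: 9.98%, 10.4% and 7.79% of all peaks had their summit in one of them without auxin, and 6.43%, 5.29% and 4.97% with auxin.

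**Figure D1:**
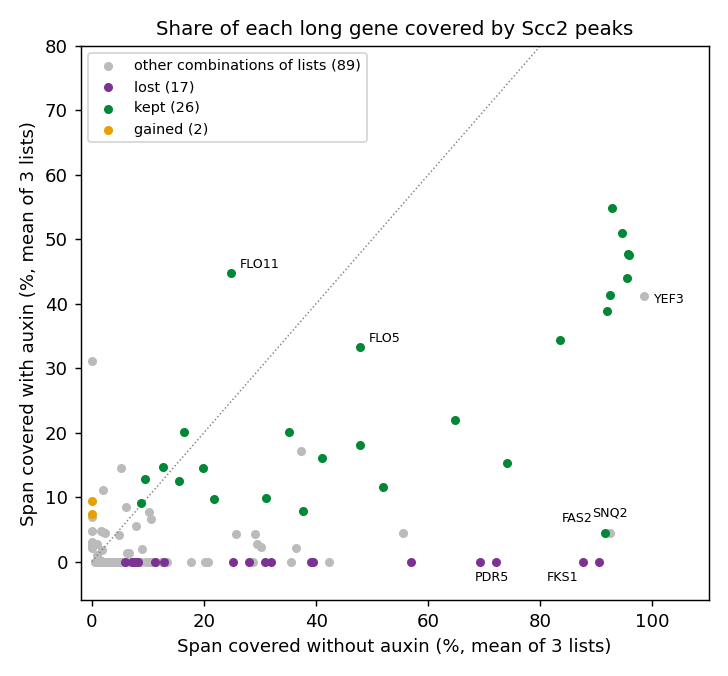
Share of the span under Scc2 peaks for each long gene that held a summit in any list, without auxin (x axis, percent, mean of 3 lists) against with auxin (y axis, percent, mean of 3 lists), with a dotted line where both are equal. The 17 lost genes lie on the x axis, with FKS1 at 87.5% without auxin, and most kept genes lie below the line, whereas FLO11 lies above it at 24.8% without and 44.7% with auxin.

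Summits lay closer to the ends of long genes without auxin than with it. The median relative position was 0.63, 0.64 and 0.49 in the lists without auxin and 0.43, 0.45 and 0.44 in the lists with auxin. No list of either group reached the other, and the difference (auxin minus no auxin) was -0.15 (exact permutation p = 0.1). In base pairs, the median distance from the summit to the end of the gene was 1503, 1432 and 1873 bp without and 2817, 2161 and 2626 bp with auxin. With lists of equal length the difference was -0.14, and the medians were 0.64, 0.64 and 0.53 without and 0.43, 0.45 and 0.51 with auxin.

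Over all members and summits the difference was largest in the final 20% of the span. This order was lost with 1 summit a gene and list, where the first 20% differed by 27.2 and the final 20% by -22.1 percentage points. It was lost too without the 12 genes of nearly equal span described below and the FLO and ENA genes, where the first 20% differed by 9.50, the fourth by -7.22 and the final by -5.21 points. An even placement would put 20% of summits in each 20% of the span. Without auxin the final 20% held 34.6%, 33.3% and 27.4% of the summits, and with auxin it held 9.68%, 14.3% and 14.1% (exact permutation p = 0.1, adjusted 0.167 over the 5 parts of the span). The first 20% held 14.2%, 12.8% and 21.4% without and 24.2%, 21.4% and 30.8% with auxin, where the highest list without and the lowest list with auxin were nearly equal (exact permutation p = 0.1, adjusted 0.167). The middle 20% held 15.6%, 15.5% and 18.8% without and 25.8%, 21.4% and 21.8% with auxin (exact permutation p = 0.1, adjusted 0.167). In the remaining parts the groups overlapped. The last 500 bp of the genes held 56, 52 and 23 summits without and 4, 7 and 10 with auxin, whereas the first 500 bp held 20, 14 and 19 without and 15, 15 and 20 with auxin.

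**Figure D2:**
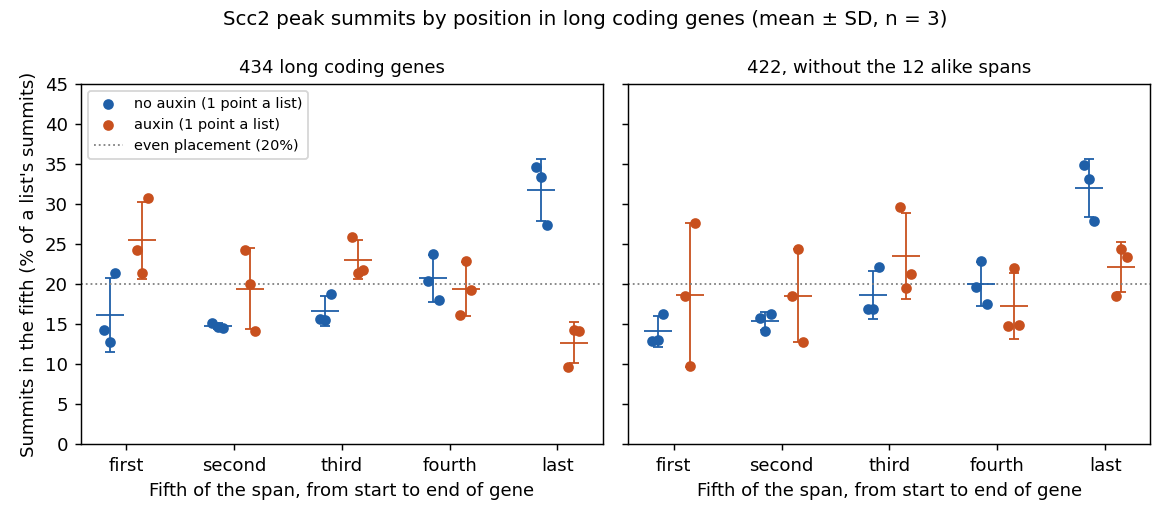
Share of a list's summits (y axis, percent) in each of 5 equal parts of the span from start to end (x axis), for lists without auxin (blue) and with auxin (orange), with 1 point a list, the mean and the SD (n = 3). In the last part the lists without auxin lie at 27.4% to 34.6% and those with auxin at 9.68% to 14.3% for all 434 genes (left), and at 27.9% to 34.8% and 18.5% to 24.4% without the 12 members of nearly equal span (right).

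A group of 12 genes known only by systematic names weighed on these values. Their spans are nearly equal, at 5269 to 5410 bp, and 11 of them held a summit in each of the 6 lists. Genes of nearly equal span can be copies of a repeated sequence, between which reads can be exchanged in alignment. Their peaks may therefore not be separate observations, and their sequences were not used here. They held 33, 35 and 31 summits without and 35, 29 and 31 with auxin, which is most of the summits in the first list with auxin. Without these 12 genes, the median relative position was 0.63, 0.66 and 0.51 without and 0.46, 0.54 and 0.48 with auxin, the groups overlapped, and the exact permutation p was 0.2. The final 20% then held 34.8%, 33.2% and 27.9% of summits without and 18.5%, 24.4% and 23.4% with auxin, still without overlap (difference -9.86 percentage points; exact permutation p = 0.1, adjusted 0.5). The first 20% held 12.9%, 13.0% and 16.3% without and 18.5%, 9.76% and 27.7% with auxin, so that the groups overlapped there. These values with auxin rest on 27, 41 and 47 summits. Leaving out the FLO and ENA genes too brought the difference in the final 20% to -5.21 percentage points, at 35.6%, 34.5% and 32.4% without and 25.0%, 33.3% and 28.6% with auxin, and the groups overlapped.

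Coverage along the gene showed the same unevenness. The last 20% of the span was covered to 9.0%, 9.81% and 5.56% without and to 0.769%, 1.42% and 1.70% with auxin, and the first 20% to 5.70%, 5.72% and 4.27% without and 2.18%, 2.43% and 3.41% with auxin. The ratio of last to first was therefore 1.58, 1.72 and 1.30 without and 0.353, 0.586 and 0.499 with auxin (exact permutation p = 0.1). The tilt without auxin depended on list length. With 964 peaks in every list, the last 20% was covered to 3.67%, 3.50% and 4.24% without auxin. The first 20% was covered to 3.67%, 3.39% and 3.34%, so the tilt was nearly gone in the first and second lists. The ratio with auxin was then 0.353, 0.445 and 0.479, still below each list without auxin. In the lists as deposited, without the 12 genes of nearly equal span, the ratio was 2.02, 2.14 and 1.57 without and 1.15, 1.39 and 0.954 with auxin. The groups again did not overlap. In this subset each of the 5 parts of the span was covered less in every list with auxin than in any list without it (exact permutation p = 0.1 for each part).

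Outside the genes the difference was smaller on the upstream side. Over the 1000 bp before the start, peaks covered 6.50%, 5.79% and 4.93% of bases without and 3.08%, 4.23% and 5.72% with auxin (exact permutation p = 0.2), and the groups overlapped. Over the 1000 bp after the end they covered 5.79%, 6.34% and 4.67% without and 1.51%, 2.27% and 3.06% with auxin (exact permutation p = 0.1), and the groups did not. These flanks hold no tRNA gene or centromere, by the rule, but they hold neighbouring genes.

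**Figure D3:**
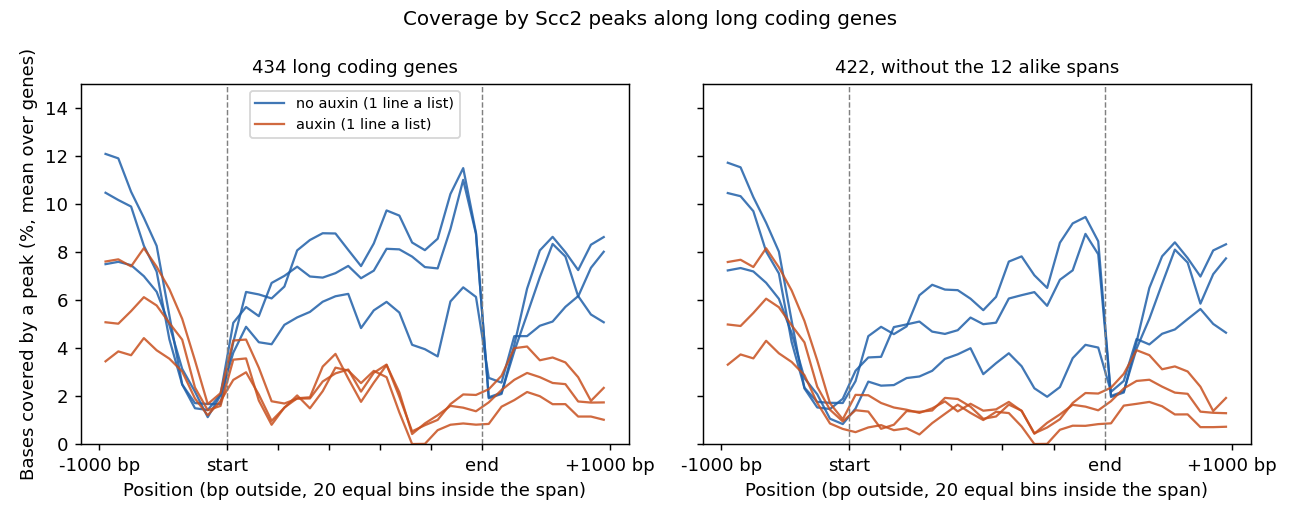
Bases covered by Scc2 peaks (y axis, percent, mean over genes) along long coding genes, from 1000 bp before the start over 20 equal bins of the span to 1000 bp after the end (x axis), with 1 line a list, for all 434 genes (left) and for 422 (right). In the lists without auxin (blue) coverage is low around the start and the end and higher in between, and within the span of the left panel it is highest near the end in each list, while in the lists with auxin (orange) it stays low along the span and overlaps the blue lines upstream of the start.

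The difference at the end of the genes was present beside both types of neighbour. Of the 231 genes with a convergent downstream neighbour, 16.5%, 17.3% and 7.79% held a summit in the final 20% without auxin and 2.16%, 1.30% and 3.03% with auxin. Of the 203 genes with a downstream neighbour in tandem, whose promoter lies past the gene's end, 13.8%, 13.3% and 5.91% did without and 0.493%, 3.45% and 1.97% with auxin. At the start, 5.00%, 5.45% and 5.45% of 220 genes with a divergent upstream neighbour held a summit in the first 20% without auxin, and 3.64%, 2.73% and 5.45% with auxin. For the 214 genes with a tandem upstream neighbour these shares were 6.54%, 7.01% and 5.14% without and 3.27%, 4.21% and 5.61% with auxin. At the start the groups overlapped for both types of neighbour.

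As a pooled value, long genes held fewer summits per length than all genes under 3000 bp. Over 4867 coding genes under 3000 bp that passed the same filters on chromosome ends, tRNA genes and centromeres, there were 0.192, 0.192 and 0.113 summits per kb without auxin and 0.0353, 0.0682 and 0.0821 with auxin. In the long genes there were 0.117, 0.121 and 0.0649 without and 0.0344, 0.0388 and 0.0433 with auxin. The value was lower for long genes in 6 of 6 lists, by a mean of 0.0438 summits per kb (exact sign-flip permutation over 6 lists, p = 0.0312, the smallest it can give, and 0.0417 adjusted over 4 comparisons of long with short genes). Such sign-flip p-values measure how far the 6 lists of both groups agree. They do not measure the spread between genes, since every list was read over the same genes. Long minus short genes gave -0.0751, -0.0704 and -0.0482 summits per kb without and -0.000886, -0.0294 and -0.0389 with auxin (exact permutation p = 0.1 for its difference between groups). By length class the order was not even. Without auxin the mean was 0.255 summits per kb in genes of 300 to 999 bp and 0.173 in those of 1000 to 1999 bp, but 0.0923 in genes of 2000 to 2499 bp and 0.0819 in genes of 2500 to 2999 bp, both below the mean of 0.101 in the long genes. With auxin these values were 0.104, 0.0643, 0.0205 and 0.0304, against 0.0388 in the long genes. Genes of 5000 bp or more had 0.147 without and 0.0805 with auxin, and 0.0868 and 0.0128 once the 12 genes of nearly equal span were left out. With the 12 genes included, the long genes as a group were thus below the classes under 2000 bp only. Leaving them out widened the mean long-minus-short difference to -0.0598 summits per kb. The whole group without them was not set against the length classes.

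The tilt towards the end was also present in short genes, and summits in long genes lay nearer the start on the relative scale. The median relative position in short genes was 0.69, 0.70 and 0.69 without and 0.52, 0.55 and 0.58 with auxin (exact permutation p = 0.1). It was lower in long genes in 6 of 6 lists, by 0.11 on average (exact sign-flip permutation p = 0.0312, adjusted 0.0417). The first 20% of long genes held a larger share of summits than that of short genes in 6 of 6 lists, by a mean of 10.8 percentage points (exact sign-flip permutation p = 0.0312, adjusted 0.0417). This count includes the 12 genes of nearly equal span. Without them the order was reversed in the second list with auxin, at 9.76% in long and 13.3% in short genes, and kept in the other lists. The first 20% also spans more bases in a long gene. A summit at a given distance from the start can thus lie inside it there and outside it in a short gene. The share in the final 20% was lower in long genes in 5 of 6 lists (exact sign-flip permutation p = 0.0938). The long-minus-short difference in that share was 0.681, -0.204 and -3.85 percentage points without and -10.3, -7.88 and -7.78 with auxin (exact permutation p = 0.1), a comparison that includes the 12 genes of nearly equal span. On either side of the length limit values were close: 16.6 ± 6.61% of 286 genes of 2500 to 2999 bp and 16.6 ± 2.49% of 175 genes of 3000 to 3499 bp held a summit without auxin, and 5.94 ± 3.05% and 6.86 ± 1.14% with auxin (SD, n = 3 lists). Of 70 genes of 5000 bp or more, 36.7 ± 8.25% held a summit without and 22.4 ± 0.825% with auxin. Once the 12 genes of nearly equal span were left out these shares were 25.3 ± 9.95% and 8.05 ± 0.995%, and the latter lay below that of genes of 3500 to 3999 bp, at 9.17 ± 3.82%.

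Gene by gene, 52 long genes held a summit in all 3 lists without auxin, or 12% of them, beside 10.5% of short genes and 10.6% of all 5301 coding genes that passed the filters other than length. Of these 52, 17 held none in any list with auxin, here called lost, and 26 held one in all 3, here called kept. The lost genes were 3.92% of the 434, beside 5.4% of short genes and 5.28% of all. The kept genes were 5.99%, beside 1.77% of short genes and 2.11% of all. Another 2 genes held a summit in all 3 lists with auxin and in none without, here called gained, which is 0.461%, beside 0.514% of short genes and 0.509% of all. Without the 12 genes of nearly equal span, 4.03% were lost, 3.55% were kept (15 genes) and 0.474% were gained. With the FLO and ENA genes left out too, 9 of 415 genes were kept. That share is close to the 2.11% over all coding genes, which still include these families. A longer gene has more bases in which a summit can fall, so these shares are not adjusted for length. Lists of equal length gave 8 lost, 14 kept and 0 gained genes, and without the third list lacking auxin 48 genes were lost. These last counts were made in the long genes only, so no share over short genes or all coding genes stands beside them.

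FAS1, ACC1 and HMG1 were lost genes of the list of large biosynthetic enzymes. Other members of that list with related products were not lost: FAS2 was kept, HMG2 held a summit in 2 lists without auxin and in none with auxin, and HFA1 held none in any list. FAS1 (chromosome XI, 100671 to 106826) encodes the beta subunit of fatty acid synthase, and peaks covered 94.8%, 96.7% and 79.8% of it without auxin. With auxin no base of it lay under a peak. ACC1 (chromosome XIV, 654673 to 661374), the acetyl-CoA carboxylase that makes malonyl-CoA for fatty acids, was covered to 86.1%, 82.1% and 39.5% without auxin and not at all with auxin. HMG1 (chromosome XIII, 115734 to 118898), an HMG-CoA reductase of the sterol pathway, was covered to 67.1%, 78.4% and 25.2% and to 0 with auxin. In all 3 genes the third list without auxin gave the smallest value.

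FAS2 (chromosome XVI, 108652 to 114315), the alpha subunit of fatty acid synthase, held a summit in all 6 lists but was covered far less with auxin. Peaks covered 94.5%, 94.5% and 85.5% of it without auxin and 3.85%, 4.57% and 4.93% with auxin. The peak that was called with auxin had its summit 377, 378 and 368 bp from the start. Summits without auxin lay there too in 2 of 3 lists, at 375 and 381 bp, and others lay up to 5477 bp from the start, near the end of the gene. Both subunits of fatty acid synthase thus held peaks over most of their length without auxin, and with auxin a peak was called near the start of FAS2 and none in FAS1.

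FKS1 (chromosome XII, 809997 to 815627), a catalytic subunit of 1,3-beta-glucan synthase in the cell wall, was covered to 89.9%, 94.5% and 78.2% without auxin and not at all with auxin. Its summits recurred at like places in the lists without auxin, at relative positions 0.43, 0.44 and 0.44 and again at 0.86, 0.87 and 0.86. URA2 (chromosome X, 165723 to 172367), which encodes the first enzyme of pyrimidine synthesis, was covered to 53.7%, 60.5% and 3.12% without auxin and held 7, 6 and 1 summits, and with auxin it held none. VMA1 (chromosome IV, 126787 to 130002), a subunit of the vacuolar proton pump, was covered to 50.2%, 61.6% and 6.31% without auxin and not at all with auxin.

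The multidrug transporter PDR5 (chromosome XV, 619840 to 624375) held 3, 3 and 6 summits without auxin, from near its start to near its end. PDR12 (chromosome XVI, 445842 to 450377), an exporter of weak acids, was covered to 32.5%, 38.9% and 12.7% without auxin, with all summits between relative positions 0.47 and 0.81. With auxin neither gene had a base under a peak. Another multidrug transporter, SNQ2 (chromosome IV, 465919 to 470424), named after its values were seen, was covered to 86.0%, 95.7% and 95.5% without auxin and to 0, 0 and 13.3% with auxin.

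In other lost genes a narrow peak sat at the end. In STE23 (chromosome XII, 899577 to 902660), a metalloprotease that processes the a-factor pheromone, the summit lay 16, 32 and 50 bp from the end. In SPT16 (chromosome VII, 98969 to 102076), a subunit of the histone chaperone FACT, it lay 130, 100 and 121 bp from the end, and in ADE6 (chromosome VII, 611889 to 615965), an enzyme of purine synthesis, the outermost summit lay 113, 176 and 137 bp from the end. All 3 genes have a convergent downstream neighbour, so these peaks lie where the ends of neighbouring genes face each other. Coverage of STE23 was 8.69%, 6.91% and 7.33% without auxin. In NUP159 (chromosome IX, 144327 to 148709), a nucleoporin of the cytoplasmic side, 1 peak lay instead in the middle part in each list, at relative positions 0.36, 0.39 and 0.38. VIP1 (chromosome XII, 937541 to 940981), an inositol pyrophosphate synthase, and VAS1 (chromosome VII, 672186 to 675500), the valyl-tRNA synthetase, were covered to 25.1 ± 7.15% and 32.0 ± 26.9% without auxin (SD, n = 3). The other lost genes, named to complete the list, were RPM2, VHC1 and KGD1, covered to 8.16%, 11.3% and 30.9% on average without auxin.

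**Figure D4:**
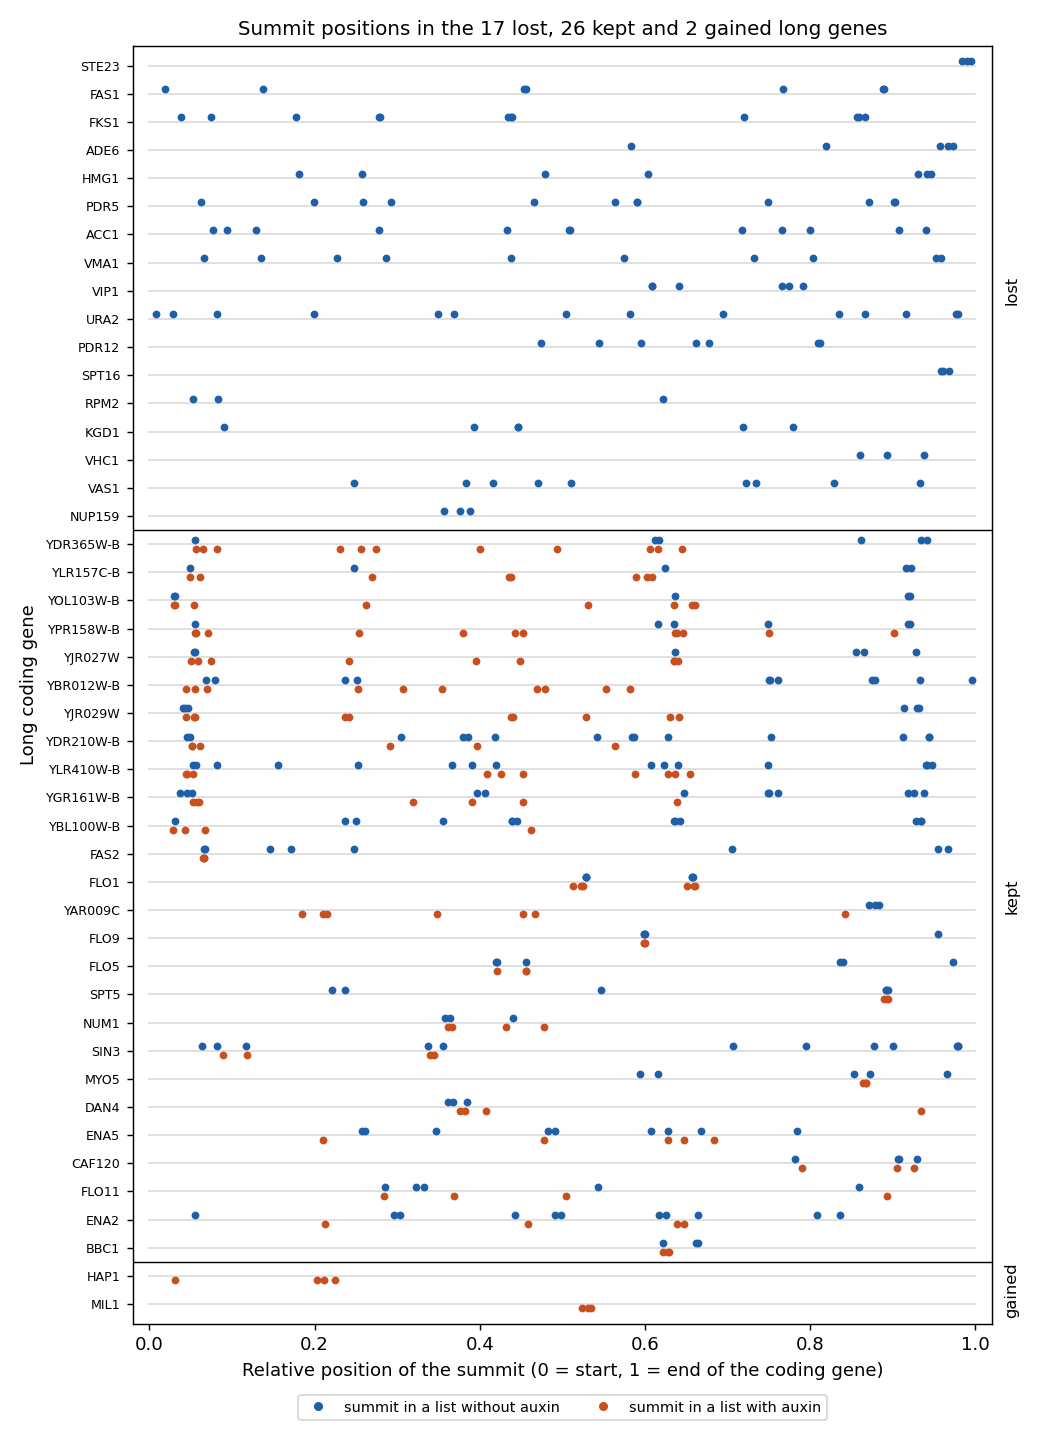
Relative position of each summit (x axis, 0 at the start and 1 at the end of the gene) in the 17 lost, 26 kept and 2 gained long genes (y axis), in the 3 lists without auxin (blue) and the 3 with auxin (orange). Among the kept genes FAS2 has orange points near its start only, SPT5 has both colours at 0.89, and the group with systematic names has many blue but few orange points in the last part of the gene.

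Summits of several kept genes stayed at one place. In SPT5 (chromosome XIII, 247677 to 250868), which encodes a transcription elongation factor, the summit nearest the end lay 339, 347 and 347 bp from the end without auxin and 336, 340 and 354 bp with auxin. A further summit was called in its first part in 2 lists without auxin and in none with auxin. In BBC1 (chromosome X, 398937 to 402410), a gene of actin patches named here after its values were seen, the relative position was 0.66, 0.66 and 0.62 without and 0.63, 0.63 and 0.62 with auxin, and coverage was 8.64%, 8.89% and 10.7% without and 11.2%, 13.9% and 13.1% with auxin. In MYO5 (chromosome XIII, 486587 to 490246), a type I myosin, a summit lay 496, 483 and 485 bp from the end with auxin, and at 538 and 469 bp in the first and the third list without auxin. Mean coverage was lower with auxin in SPT5, at 35.2% without and 20.1% with it, and in MYO5, at 21.7% and 9.70%. NUM1 (chromosome IV, 755628 to 763874), the cortical anchor of dynein, was covered to 15.6%, 15.8% and 15.4% without and 15.0%, 15.3% and 7.20% with auxin. In NUM1 the means of the groups differed by less than the SD of the lists with auxin. CAF120 and DAN4 were kept too, and both are named to complete the list. CAF120 was covered to 17.6%, 18.9% and 22.9% without and 6.97%, 22% and 14.8% with auxin, where the groups overlapped.

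Genes of cell-surface proteins and of sodium pumps were also among the kept. The flocculin gene FLO1 (chromosome I, 203403 to 208016), for a cell wall protein that makes cells clump, was covered to 15.6%, 14.7% and 18.9% without and 20.8%, 20.7% and 19.0% with auxin. FLO5, FLO9 and FLO11 were kept as well, named after their values were seen. FLO11 coverage was 23.6%, 20.2% and 30.8% without and 44.3%, 45.1% and 44.9% with auxin, so this gene was covered more in each list with auxin. ENA5 (chromosome IV, 527422 to 530697) and ENA2 (chromosome IV, 531307 to 534582) encode sodium exporters and lie side by side. ENA5 was covered to 54.6%, 49.0% and 39.9% without and 11.3%, 8.36% and 34.7% with auxin, and ENA2 to 29.4%, 41.6% and 52.3% without and 8.61%, 30.2% and 9.55% with auxin, where the groups overlapped at 29.4% and 30.2%. FLO and ENA genes are families of similar copies, between which reads can be exchanged in alignment, and the placing of their peaks is uncertain. Whether the W303 cells carry the same copies as the reference, here or for the kept genes with systematic names, was not checked.

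The kept genes with systematic names were covered less in each list with auxin than in any list without it. YDR365W-B (chromosome IV, 1206997 to 1212265) was covered to 95.5%, 91.9% and 99.2% without and 49.9%, 46.0% and 36.3% with auxin, and YLR157C-B (chromosome XII, 476333 to 481601) to 95.6%, 91.2% and 100% without and 59.4%, 44.0% and 39.7% with auxin. The values of YOL103W-B, YPR158W-B, YJR027W, YBR012W-B and YJR029W were alike, at 83.6% to 95.9% on average without and 34.4% to 54.8% with auxin. YAR009C (chromosome I, 160597 to 164187), of a shorter span, was covered to 91.8 ± 5.21% without and 38.9 ± 3.06% with auxin (SD, n = 3), and its median summit lay at 0.88, 0.87 and 0.88 without and at 0.35, 0.33 and 0.33 with auxin.

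Of the 26 kept genes, 19 had a median summit position nearer the start with auxin, and in 10 of them the groups did not overlap, each towards the start. Besides YAR009C, those with the largest shifts were YBR012W-B, SIN3, YBL100W-B and FAS2. SIN3 (chromosome XV, 316938 to 321548), the scaffold of a histone deacetylase complex, held 6, 4 and 2 summits without auxin and 1, 1 and 2 with auxin. Its summits with auxin lay between 0.09 and 0.34 of the span, and without auxin they reached 0.98 in each list. Over the 15 kept genes outside the group of nearly equal span, 9 had a median position nearer the start, the groups did not overlap in 4, and the median shift was -0.01. These 15 still include YAR009C, which is among the 4, and the kept FLO and ENA genes. The same counts were not made for the 86 kept short genes. Short genes as a whole also had a median position nearer the start with auxin, so the counts are not particular to long genes by themselves.

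Gained genes were few. HAP1 (chromosome XII, 646415 to 650923), a haem-responsive transcription factor, had no base under a peak without auxin and 7.34%, 6.28% and 14.7% with auxin, with a summit at 0.21, 0.20 and 0.22 of the span and another at 0.03 in the third list. MIL1 (chromosome VI, 65477 to 68698), a protein that binds a clathrin adaptor, was covered to 7.08%, 8.41% and 6.49% with auxin only, with a summit at 0.52, 0.54 and 0.53. CIN1 (chromosome XV, 989789 to 992833), a tubulin folding factor named after its values were seen, had no base under a peak without auxin and 12.8%, 31.1% and 49.5% with auxin, although a summit lay inside it in 1 of these lists only. In the locus of Med14 itself, RGR1 in the table (chromosome XII, 275378 to 278626), summits were called in 2 of 3 lists with auxin, 46 and 45 bp from the end of the gene, and in no list without auxin, where 1 list had a peak over 2.74% of the span. SCC2 (chromosome IV, 821295 to 825776) had no base under a peak in any list. In these cells both genes carry an inserted tag and marker that the reference lacks.

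By function, counts are to be read beside those over all 434 long genes, of which 22.6%, 24.7% and 14.1% held a summit without auxin and 8.06%, 10.1% and 10.4% with auxin. Large biosynthetic enzymes, large translation proteins, ABC transporters, P-type ATPases, glucan and chitin synthases and RNA polymerase subunits were above the share over all long genes in each list without auxin, and most of these groups are small. Of 20 genes for large biosynthetic enzymes that met the rule, 14, 14 and 8 held a summit without auxin and 1, 1 and 2 with auxin, and 6 were lost and 1 kept, beside 17 lost and 26 kept of all 434. Their coverage had a median of 11.1% without and 0 with auxin, and the median over all long genes was 0 in each condition. Of 9 genes for large translation proteins, 6, 7 and 3 held a summit without and 0, 2 and 1 with auxin. YEF3 (chromosome XII, 636780 to 639914), translation elongation factor 3, named after its values were seen, had the highest coverage of any long gene without auxin, at 99.6%, 98.9% and 97.2%, against 0, 48.8% and 74.8% with auxin. Of 5 genes for the largest subunits of RNA polymerases, 3, 4 and 1 held a summit without and 1, 0 and 1 with auxin, and RPO21 (chromosome IV, 205360 to 210561), which encodes the largest subunit of RNA polymerase II, held 7, 4 and 1 summits without and 1, 0 and 1 with auxin. Of 11 ABC transporter genes, 3, 6 and 3 held one without and 0, 1 and 2 with auxin, and 2 were lost and none kept.

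The other groups ranged from no summit in any list to shares near or above those over all long genes. None of 12 genes for cohesin, condensin and related proteins and none of 11 for DNA replication and checkpoint held a summit in any of the 6 lists. Among 15 genes for motors and cytoskeleton, 3, 4 and 5 held a summit without and 4, 4 and 4 with auxin, so that the groups overlapped, and NUM1 and MYO5 were kept. Of 11 P-type ATPase genes, 5, 5 and 3 held one without and 2, 3 and 3 with auxin, where the ENA genes make up the 2 kept. Of 15 genes for chromatin remodelling and transcription, 5, 4 and 2 held one without and 1, 1 and 2 with auxin, with 1 lost and 1 kept. Of 5 Mediator genes, 0, 0 and 1 held one without and 1, 2 and 1 with auxin. Of 5 glucan and chitin synthase genes, 2, 2 and 1 held one without and none with auxin, and the same held for nucleoporins, at 2, 2 and 1 of 10. Karyopherin genes had a summit at 1, 2 and 1 of 9 without and 0, 0 and 1 with auxin, and membrane traffic genes at 3, 4 and 0 of 13 without and 0, 3 and 1 with auxin. Ribosome assembly genes had one at 1, 2 and 0 of 7 without and at none with auxin, genes of TOR, Ras and protein kinase A signalling at 2, 0 and 0 of 8 without and none with auxin, and ubiquitin and proteolysis genes at 1 of 8 in each list without and at 0, 1 and 0 with auxin. The longest gene, REA1 (chromosome XII, 349006 to 363738), an ATPase of ribosome assembly, held 1 summit in 1 list without auxin.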

How the data were processed

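The submitters' processing notes name sacCer3, MACS2 2.1.1.20160309 and Bowtie2 2.4.2, without saying which step each served. Settings and the control for peak calling: not given in the sources used here. The authors deposited 1 narrow peak list per immunoprecipitate. Fold enrichment is a ratio given by the authors' peak caller, and significance is deposited as −log10 p and −log10 q values. The score column deposited by the authors is the −log10 q times 10 and was not used. Peak positions and summits are in base pairs. Fold served to rank genes to name and −log10 q to rank peaks within a list. The labels' protocol adds fission yeast cells as a spike-in, and no value here is scaled by it.

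Genes came from RefSeq R64, the sequence sacCer3 uses. Centromere positions and chromosome lengths were entered from general knowledge: 0 genes overlapped a centromere and 0 peaks passed a chromosome end. Groups came from the sample titles. The list is the replicate. Tests were exact two-sided permutations of the difference of means over 20 assignments, and sign flips over 6 lists for long against short genes. Nothing in the labels ties replicate numbers to a shared day. The labels' protocol, auxin included, is repeated for every sample, and the groups rest on the titles and treatment labels.

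The members, gene lists, tests and the naming rule were chosen with earlier results of these data known. The rule named RGR1 and SCC2, the longest gene, those with most summits in a list, up to 10 lost, kept and gained genes by median fold, up to 2 lost and 2 kept of each functional list, and up to 5 kept genes with shifted summits. Coverage by part of the span, the 1000 bp flanks and the subsets without genes of nearly equal span were added after seeing the data. Position and test code was tested on simulated lists. Tools were Python 3.11.15, numpy 2.4.6 and pandas 2.3.3.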

Additional observations from a re-analysis of the deposited data

How the results depend on the processing

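Not every 1 of the 21 alternatives was applied to every result. The share of genes with a summit had 17, coverage 15, the median position 20 and the share of each 20% of the span 18. Genes with a summit in both groups, and spans overlapping no other gene, were tried for the median position only. The replicate block changes the p-value and not the difference. Under the alternatives applied, the differences between groups (auxin minus no auxin) in the share of genes, in coverage and in the median position kept their direction. So did those in the shares of the first and the final 20% of the span. The share of genes ranged from -14.1 to -0.69 percentage points, coverage from -7.17 to -2.38 points, the median position from -0.28 to -0.11, the share of the first 20% from 4.56 to 27.2 points, and that of the final 20% from -28.4 to -5.21 points. With 3 lists a group none of these could pass 0.05. The share of the fourth 20% had no stable direction: it was -1.29 points, and 4.47 with lists of equal length, 0.55 at −log10 q of 5 or more, 1.75 for spans of 4000 bp or more, 0.32 with no tRNA gene or centromere within 2000 bp and -3.01 to 0.35 with a list left out. The second 20% reversed to -2.75 points with 1 summit a gene, and the third to -0.59 without the 12 genes and the FLO and ENA families.

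Counts of genes moved with the lists and the length limit. Under these alternatives genes were counted among the long genes only, so no share over all coding genes stands beside the counts. Lost genes were 8 with lists of equal length, 40 at 2000 bp or more, 8 at 4000 bp or more, and 17 to 48 with a list left out, the highest without the third list lacking auxin. Kept genes were 14 with lists of equal length, 16 at 4000 bp or more, 15 without the 12 genes and 9 without them and the FLO and ENA genes. Gained genes were 0 with lists of equal length, 1 at 4000 bp or more and 2 to 4 with a list left out. Fewer summits per kb in long than in short genes was found throughout, at -0.0295 for spans of 4000 bp or more (exact sign-flip p = 0.0625) and -0.0524 to -0.0375 with a list left out, where 5 lists cannot give a p below 0.0625.

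Replicate numbers did not pair the lists: the deviations of same-numbered lists correlated at -0.03, -0.01 and -0.08 over the 434 genes. With the replicate block the differences were the same, -10.9 points in genes with a summit and -0.15 in median position, at the smallest exact sign-flip p of 0.25.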
